A study of Mus musculus with 19 samples.

Results

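Cells of stratified epithelia that keratinize build a cornified envelope, a cross-linked protein shell under the plasma membrane. The genes followed here are those of the small proline-rich (Sprr) and late cornified envelope (Lce) families together with 21 single genes of epidermal differentiation. They were picked by their symbols, and no measured value enters that rule, but earlier results of these data were known when it was set. The deposited tables hold 53 such genes of 23284 in all: 15 with a symbol starting with Sprr, 18 with a symbol starting with Lce, and 20 of the 21 single genes. Flg was not analysed here. Keratin genes were not members and appear only as markers.

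RNA-seq was available for 19 libraries, in which the study asked how closely prostate tissue made from fibroblasts resembles native prostate. The 5 iEpt+NAF grafts (FS002, FS003, FS005, FS007 and FS008) and the 2 iEpt only grafts (FS022 and FS023) came from mouse embryonic fibroblasts (MEFs) of E13.5 embryos. Retroviruses with human OCT4, SOX2, KLF4 and c-MYC had turned these fibroblasts into induced epithelial cells (iEpt) in a basal epithelial medium. The iEpt+NAF cells also carried lentiviral regulators, mouse Nkx3.1 and mouse Foxa1 among them. All grafts were mixed with urogenital mesenchyme of rat embryos and grew for 6 weeks under the kidney capsule of male nude mice given testosterone. The other groups were 6 samples of C57BL/6 prostate at 6 weeks of age and 6 MEF samples that the labels give as Nkx3-1tm2(LacZ)Mms /+ on a C57BL/6 background, cultured from pooled male and female littermates and sorted against blood, endothelial and epithelial surface markers. The labels name the grafts only as renal grafts of C57BL/6 strain. The study's supplement lists 5 of them as iEpt+NAF, and FS022 and FS023 are taken as iEpt only by elimination. No label ties a library to an animal or a culture, so p-values measure the spread between these libraries.

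In epidermis, keratinocytes leave the basal layer and switch on envelope precursors in order. Involucrin and the Sprr proteins are early building blocks, loricrin and the Lce proteins are late ones, and transglutaminases join them through isopeptide bonds. Lipoxygenases process the lipids that coat the envelope, corneodesmosomes hold the dead cells together, and kallikreins cut those junctions when cells are shed. Many of the precursors lie side by side in a gene cluster, the epidermal differentiation complex. A glandular epithelium such as that of the prostate is not known for making a cornified layer, whereas Sprr genes are also used by other epithelia.

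Values are the deposited log2 values, normalized by the authors across libraries. A gene with 0 reads sits at -0.31, and values near it scatter by an SD of 1.07 to 1.12, so a gene is called detected below only at a log2 value of 4 or more. The reads counted on genes were estimated at 16767295 to 26152350 in the 17 libraries of the first table and at 6629666 and 9662062 in FS022 and FS023, which form a second table and enter no test. The MEF libraries form 3 close pairs (FS015 with FS020, FS016 with FS019, FS017 with FS018), and 4 of them, FS015 to FS018, hold prostate transcripts at a median of 0.0544% to 0.182% of their prostate level. All 4 kidney markers were detected in all 5 iEpt+NAF grafts, where their summed log2 level ran from 10.2 in FS003 to 17.3 in FS005. Their part in the results below was not tested. In tissue samples, fewer cells of a type and less RNA per cell cannot be told apart.

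Of the 53 genes, 46 were detected in at least 1 iEpt+NAF graft, 9 in at least 1 prostate library and 9 in at least 1 MEF library. The grafts themselves ranged widely. FS003 held 42 of the genes, FS002 held 40, FS005 and FS007 held 22 each, and FS008 held 7. The prostate libraries held 6 to 8 and the MEF libraries 2 to 8. The share of all genes detected was 61% to 68.3% in these grafts, 58.4% to 60.1% in prostate and 53.5% to 55.9% in MEFs. Only 6 of the genes were detected in all 5 grafts, and 11 more were detected in every graft except FS008. The 5 genes detected in no library of either table were Sprr2a1, Sprr2a2, Sprr2e, Sprr2j-ps and Lce6a.

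**Figure D1:**
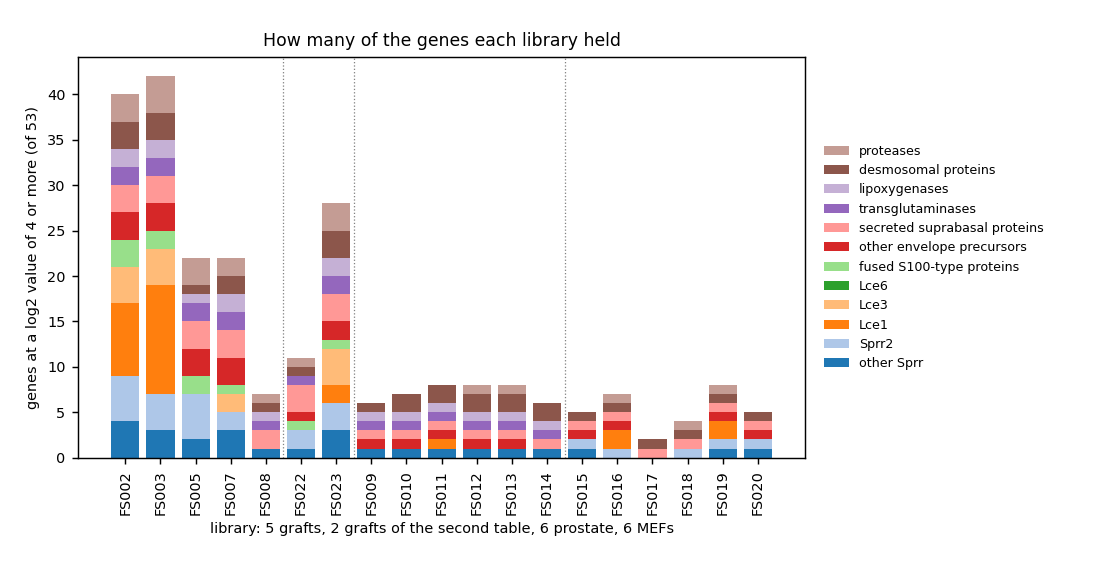
Bars give, for each library on the x axis, how many of the 53 genes had a log2 value of 4 or more (y axis), stacked by gene family. Grafts FS002 and FS003 stand at 40 and 42, the prostate libraries at 6 to 8 and the MEF libraries at 2 to 8. FS008 at 7 is the graft nearest to prostate in this count only, not in which genes it held.

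**Figure D2:**
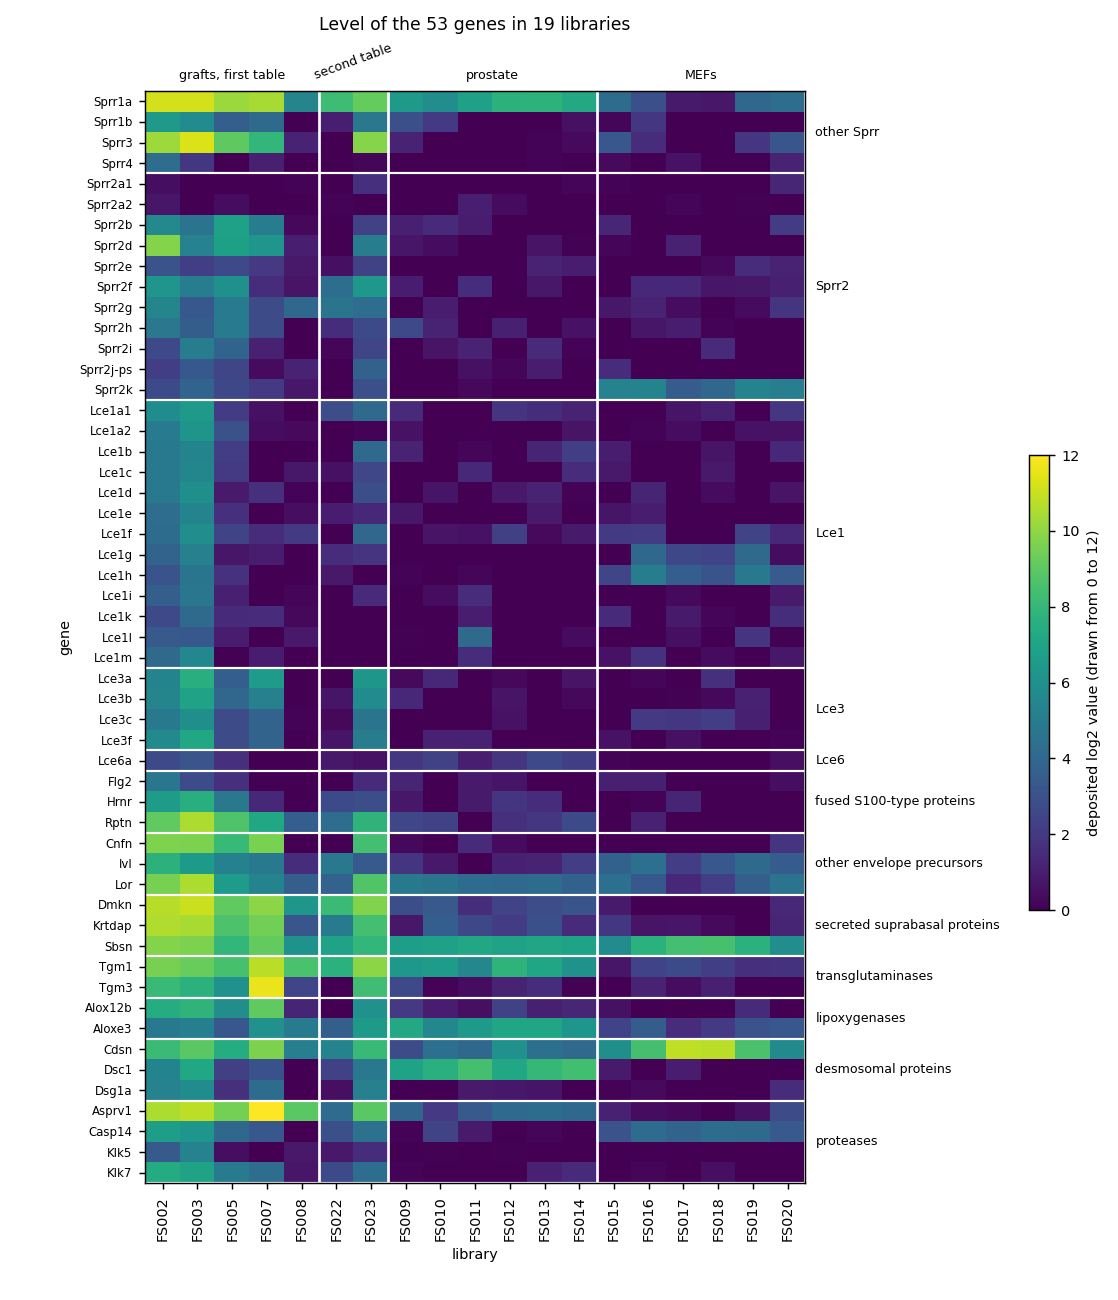
Each row is 1 of the 53 genes, grouped by family, and each column is a library, with the colour giving the deposited log2 value drawn from 0 to 12. Bright cells gather in the graft columns other than FS008 and FS022, while Dsc1 and Aloxe3 are brighter in prostate and Cdsn and Sprr2k are bright in MEFs.

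The sequences that matter first for reading these values are those of the Sprr2 paralogs, which lie in tandem on mouse chromosome 3 and have like starts of their coding sequence. The first 30 coding bases of 4 of them are given below from the mm9 transcripts of GENCODE M1, 5′ to 3′, with capitals at each base that differs from Sprr2d.
Sprr2d: atgtcttaccagcagcagcagtgcaagcag
Sprr2a1: atgtcttacTaCcagcagcagtgcaaTcag
Sprr2a2: atgtcttacTaCcagcagcagtgcaaTcag
Sprr2k: atgtcttaccaAGagcagcagtgTaagcag
Sprr2a1 and Sprr2a2 do not differ in this stretch. Of the 50-base words in the transcripts of either gene, 97.1% are also in other genes, against 4.27% for Sprr2d, 8.57% for Sprr2b and 0% for Sprr2g, Sprr2k, Sprr1a, Sprr1b and Sprr3. How reads that fit several genes were counted is not stated, so the values of Sprr2a1 and Sprr2a2, at most 0.72 in the 5 iEpt+NAF grafts, do not show that these genes were silent. The same doubt holds in part for Lce1 genes other than Lce1k and Lce1m, with 9.18% to 24.4% shared words, for Lce3 genes, with 12.1% to 46.3%, and for Dsg1a, with 35%.

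Sprr1a, a cross-linked precursor with the highest level per length of the 53 genes in the grafts (1843 linear units per kb of exon), was at 11.22, 11.25, 10.19, 10.41 and 5.48 in FS002, FS003, FS005, FS007 and FS008. In prostate it ran from 5.88 to 7.76 with a median of 7.04, and in MEFs from 0.77 to 4.34 with a median of 3.47. The grafts were above all prostate libraries apart from FS008, which lay below all of them. The log2 difference of grafts from prostate was 2.72 (standard error 0.92, adjusted p=0.0251 from limma). Without FS008 it was 3.78, and the call was lost without FS002, FS003, FS005 or prostate library FS010, with differences of 2.33 or more.

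Sprr3, a family member best known from the lining of the oesophagus and mouth, was at 10.25, 11.35, 9.05, 7.93 and 1.19 in the same order of grafts. No prostate library exceeded the level of 3 reads, and the highest was 1.13. Against that level the graft mean was at least 5.80 log2 units higher, and limma gave an adjusted p of 0.000971. Lower bounds given below for other genes are likewise for the graft mean and not for each graft. MEF libraries ran from -2.80 to 3.26. Again 4 grafts stood far above prostate while FS008 lay beside its highest library. Sprr1b, next to Sprr3 in the cluster, was lower at 6.44, 5.78, 3.63, 4.13 and -0.46, against -1.88 to 2.92 in prostate (log2 difference 3.68, standard error 1.32, adjusted p=0.0328). Its call was lost without FS002, FS003, FS005 or FS007, and without prostate library FS011, FS012, FS013 or FS014, with differences from 3.05. Sprr4 was detected only in FS002, at 4.28.

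The Sprr2 genes did not follow one order among the grafts. Sprr2d was at 9.77 in FS002 but at 5.32, 6.83, 6.27 and 1.02 in FS003, FS005, FS007 and FS008, at least 3.69 log2 units above the 3-read level of prostate (adjusted p=0.00196). Sprr2b was highest in FS005, with 5.66, 4.55, 6.88, 5.03 and 0.28 across the grafts, and at least 2.32 log2 units above that level (adjusted p=0.00582). Sprr2f, at 6.24, 5.06, 6.03, 1.54 and 0.63, was detected in 3 iEpt+NAF grafts and called higher (adjusted p=0.015). FS002 or FS005 was thus the highest iEpt+NAF graft for each of these 3 genes. Sprr2g was lowest in FS007 and not in FS008, at 5.45, 3.32, 4.93, 2.77 and 3.997, with the last just under the detection level and above the highest prostate value of 0.93. Its graft mean was at least 1.94 log2 units above the 3-read level of prostate (adjusted p=0.000188). The other 7 Sprr2 genes were not tested against prostate because they missed the filter, and 2 of them (Sprr2h and Sprr2i) were detected in a graft, at up to 5.07. Sprr2k went another way, with 3.51 to 5.42 in MEFs, 0.79 to 3.85 in the grafts and at most 0.25 in prostate.

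**Figure D3:**
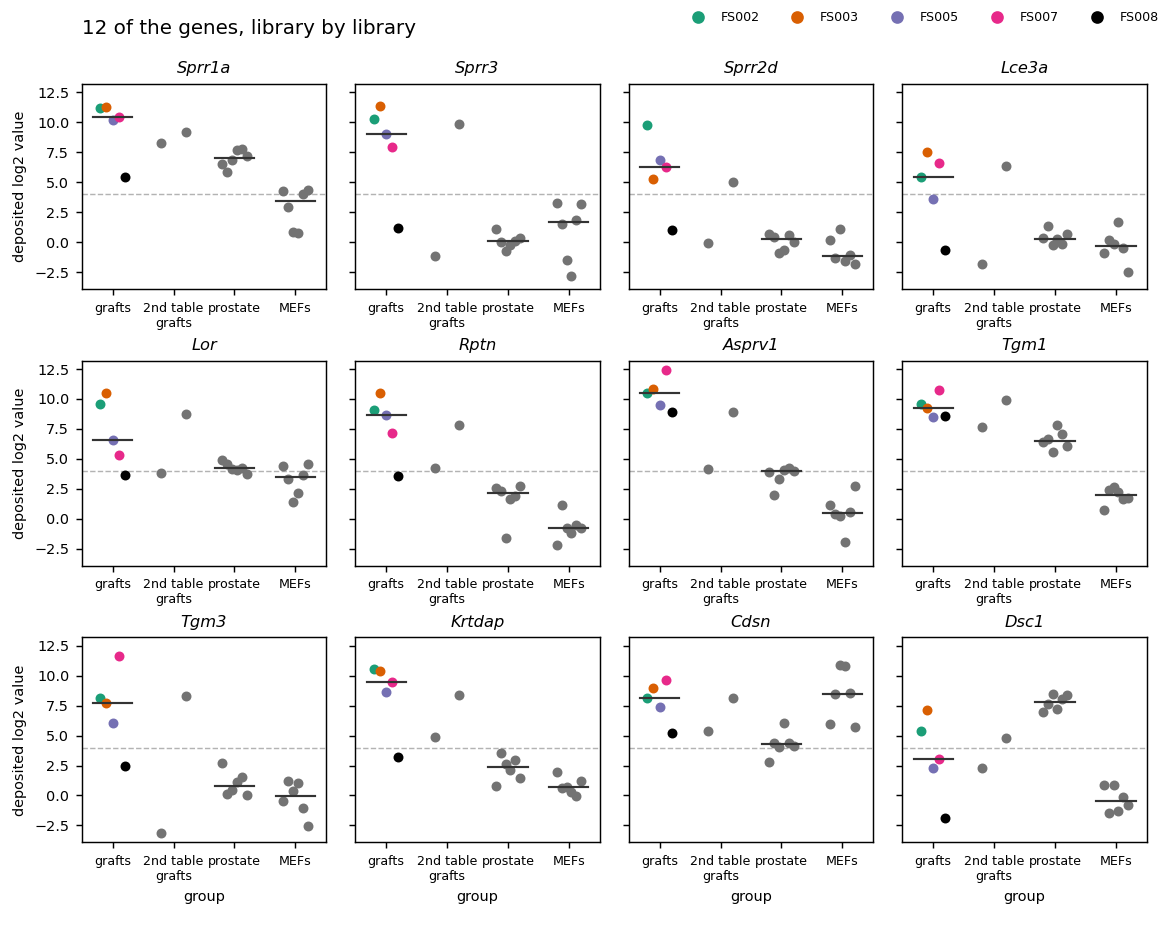
Each panel is 1 of 12 genes, with the deposited log2 value (y axis) of every library by group (x axis), horizontal lines at group medians and a dashed line at the detection level of 4. FS008 (black) is the lowest iEpt+NAF graft in 11 of the 12 panels. Asprv1 and Tgm1 stay above prostate in every iEpt+NAF graft but not in FS022. Dsc1 and Cdsn are highest in prostate and in MEFs, respectively.

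Among the iEpt+NAF grafts, the Lce1 genes, which encode small late envelope proteins, were detected only in FS002 and FS003. In FS003 12 of the 13 Lce1 genes were detected and in FS002 8, whereas FS005, FS007 and FS008 held none. Their median log2 value was 5.41 in FS003 and 4.24 in FS002, against 1.62, 0.41 and 0.20 in FS005, FS007 and FS008. Only 2 of the 13 passed the filter on low values. Lce1a2, at 4.90, 6.22, 2.998, 0.41 and 0.28, was called higher than in prostate (graft mean at least 0.81 log2 units higher, adjusted p=0.0297). Among these grafts it was detected only in FS002 and FS003, and it missed the filter when either was left out. The call was lost without FS005 or without prostate library FS011, FS012 or FS013, where the fitted difference was 3.001 or more. Lce1a1, at 5.84, 6.45, 2.12, 0.53 and -0.67, was not called (adjusted p=0.194). In MEFs Lce1h and Lce1g reached 5.04 and 4.14, although Lce1g shares 17.8% and Lce1h 17% of its words with other Lce genes.

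The 4 Lce3 genes, whose human relatives are known from irritated and psoriatic skin, had a different pattern from Lce1 in FS007. Lce3a was at 5.43, 7.53, 3.58, 6.62 and -0.69, so that FS007 ranked above FS002, and prostate libraries reached at most 1.33. Lce3b was at 5.46, 6.94, 3.95, 5.23 and -0.54, Lce3c at 4.84, 5.96, 2.80, 3.82 and 0.12, and Lce3f at 5.70, 7.21, 2.74, 3.80 and -2.18. No prostate library exceeded 3 reads for any of them. The graft mean was at least 2.34, 2.05, 1.35 and 1.30 log2 units higher for Lce3a, Lce3b, Lce3c and Lce3f, with adjusted p-values of 0.0152, 0.00911, 0.00602 and 0.0422. Lce3f lost its call without FS002, FS005 or FS007, and without prostate library FS009, FS012, FS013 or FS014, with differences from 3.30. Without FS003 it missed the filter and was not tested.

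Loricrin, the main late precursor of epidermis and the product of Lor, was at 9.56, 10.52, 6.62, 5.37 and 3.63. Prostate ran from 3.72 to 4.87 and MEFs from 1.37 to 4.55, so FS008 overlapped both. The log2 difference from prostate was 2.85 (standard error 1.06, adjusted p=0.0377), and this call was lost when FS002, FS003, FS005 or any 1 of the 6 prostate libraries was left out, with differences from 2.01. Involucrin, the early scaffold encoded by Ivl, was at 7.69, 6.53, 5.26, 4.84 and 1.59, at least 3.03 log2 units above prostate (adjusted p=0.00392). It reached 4.38 in MEFs, and the difference of grafts from MEFs, 1.65 (standard error 0.92), did not pass (adjusted p=0.133). Cornifelin, a small envelope protein encoded by Cnfn, was at 9.70, 9.62, 8.08 and 9.60 in 4 grafts and at -0.04 in FS008. Prostate and MEFs had at most 1.42 and 1.79, no library of either group exceeded 3 reads, and the graft mean was at least 5.24 log2 units above prostate (adjusted p=0.00214).

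The genes of fused S100-type proteins, large repeat proteins of the upper epidermal layers, differed strongly in level. Rptn, which encodes repetin, was at 9.07, 10.52, 8.67, 7.14 and 3.59, and every graft lay above the highest prostate library at 2.71 (log2 difference 6.19, standard error 1.17, adjusted p=0.000971). Hrnr, which encodes hornerin, was at 6.62, 7.53, 4.79, 1.35 and -0.84 and did not pass (adjusted p=0.0721). Flg2 was detected only in FS002, at 4.69.

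Of the secreted proteins of the suprabasal layers, Dmkn (dermokine) was at 10.71, 11.05, 9.06, 9.94 and 6.36, with all grafts above the highest prostate value of 3.36 (log2 difference 6.71, standard error 0.74, adjusted p=2.38e-05). Krtdap was at 10.55, 10.42, 8.65, 9.44 and 3.21, with a highest prostate value of 3.57 (log2 difference 6.20, standard error 1.17, adjusted p=0.001). Per kb of exon it came second to Sprr1a in the grafts, at 1742 linear units. Sbsn (suprabasin) was present in every group: 9.80, 9.65, 7.96, 9.10 and 6.15 in the grafts, 6.71 to 7.16 in prostate and 5.77 to 8.50 in MEFs. It was called higher in the grafts than in prostate (log2 difference 1.57, standard error 0.55, adjusted p=0.0312). That call was lost without FS002, FS003 or FS007, or without prostate library FS009, FS010, FS012 or FS014, with differences from 1.25, and the difference from MEFs, 1.21 (standard error 0.74), did not pass (adjusted p=0.166).

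Tgm1, the membrane-bound transglutaminase that cross-links envelope precursors, was at 9.55, 9.21, 8.53, 10.75 and 8.55. All 5 grafts were above all 6 prostate libraries, at 5.54 to 7.79 with a median of 6.52, and these were above all MEFs, at 0.71 to 2.68. The log2 difference from prostate was 2.72 (standard error 0.46, adjusted p=0.000478), and FS008 did not stand apart. Tgm3, a second transglutaminase of the upper layers, was at 8.13, 7.68, 6.09, 11.67 and 2.49, against 0.05 to 2.67 in prostate (log2 difference 6.22, standard error 1.29, adjusted p=0.00179). FS007 had the highest level of both enzymes, although no Lce1 gene was detected in it and Lor was at 5.37.

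The lipoxygenases, which act in series on barrier lipids, moved in opposite directions. Alox12b was at 7.45, 7.81, 5.94, 9.08 and 1.25 and reached 2.37 in prostate (log2 difference 4.96, standard error 1.16, adjusted p=0.00372). Aloxe3 was at 4.83, 5.16, 3.25, 6.05 and 4.97 in the grafts and at 5.60 to 7.26 in prostate, with a median of 6.76 (log2 difference -1.78, standard error 0.47, adjusted p=0.00764). In MEFs Aloxe3 ran from 1.505 to 3.54, and Alox12b reached 1.46 there, under the detection level.

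Among desmosomal proteins, Cdsn (corneodesmosin) was at 8.17, 8.95, 7.41, 9.64 and 5.18 in the grafts and at 2.76 to 6.06 in prostate (log2 difference 3.57, standard error 0.76, adjusted p=0.00218). MEFs held it too, at 5.72 to 10.87 and with little spread within each close pair: 5.97 and 5.72 in FS015 and FS020, 8.44 and 8.56 in FS016 and FS019, and 10.87 and 10.78 in FS017 and FS018. The difference of grafts from MEFs was -0.52 (standard error 1.10, adjusted p=0.69) and turned to 0.73 without FS015 to FS018 and to 0.15 without FS008. Dsc1, the desmocollin of differentiated layers, was the reverse of most members, with 5.40, 7.13, 2.30, 3.02 and -1.85 in the grafts and 6.96 to 8.48 in prostate. Its log2 difference from prostate was -4.57 (standard error 1.26, adjusted p=0.0093) and -3.31 without FS008. Dsg1a was at 5.33, 5.83, 1.61, 4.25 and -1.20, and no prostate library exceeded 3 reads. Its graft mean was at least 1.009 log2 units higher (adjusted p=0.0321). This call was lost without FS007 or without prostate library FS009, FS010 or FS014, where the fitted difference was 3.29 or more. Without FS002 or FS003 Dsg1a missed the filter and was not tested.

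Asprv1, the retroviral-like protease that processes profilaggrin, had the highest single value of all members: 10.51, 10.82, 9.48, 12.40 and 8.91 across the grafts. Prostate ran from 2.01 to 4.24, so the groups did not overlap, and the log2 difference was 6.83 (standard error 0.60, adjusted p=5.21e-06). It was also the most abundant of the 53 genes in FS008. Klk7, a kallikrein of desquamation, was at 7.36, 6.93, 4.98, 4.29 and 0.72, at least 2.70 log2 units above prostate (adjusted p=0.00346), while Klk5 was detected only in FS003, at 5.31. Casp14, a caspase of cornification, was at 6.68, 6.32, 4.04, 3.26 and -1.26 against at most 2.48 in prostate (log2 difference 3.68, standard error 1.37, adjusted p=0.0384). This call was lost without FS002, FS003 or FS005, and without any 1 prostate library other than FS010, with differences from 2.96.

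Against prostate, 31 of the 53 genes passed the filter of a linear mean of 10 over the 11 libraries compared, 27 of them were called higher in the grafts and 2 lower. Called means an adjusted p under 0.05 and an absolute log2 difference of at least 1. Over all 16353 genes tested, 23% were called higher and 10.3% lower. Many of these members passed the filter only through their graft values, since 16 of the 31 had no prostate library above 3 reads, so the count describes the members and supports nothing by itself. With no filter on low values, 34 of all 53 were called higher and 2 lower, against 18.4% and 7.88% of all genes. With the filter, the 2 lower ones were Dsc1 and Aloxe3. In 7 of the 31 every graft lay above every prostate library, which held for 19.8% of all genes tested. Quantile normalization, which moved the median difference of all genes from 0.11 to -0.14, left 20 members in the test, with 15 higher and 2 lower against 2455 higher and 3176 lower of all genes.

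**Figure D4:**
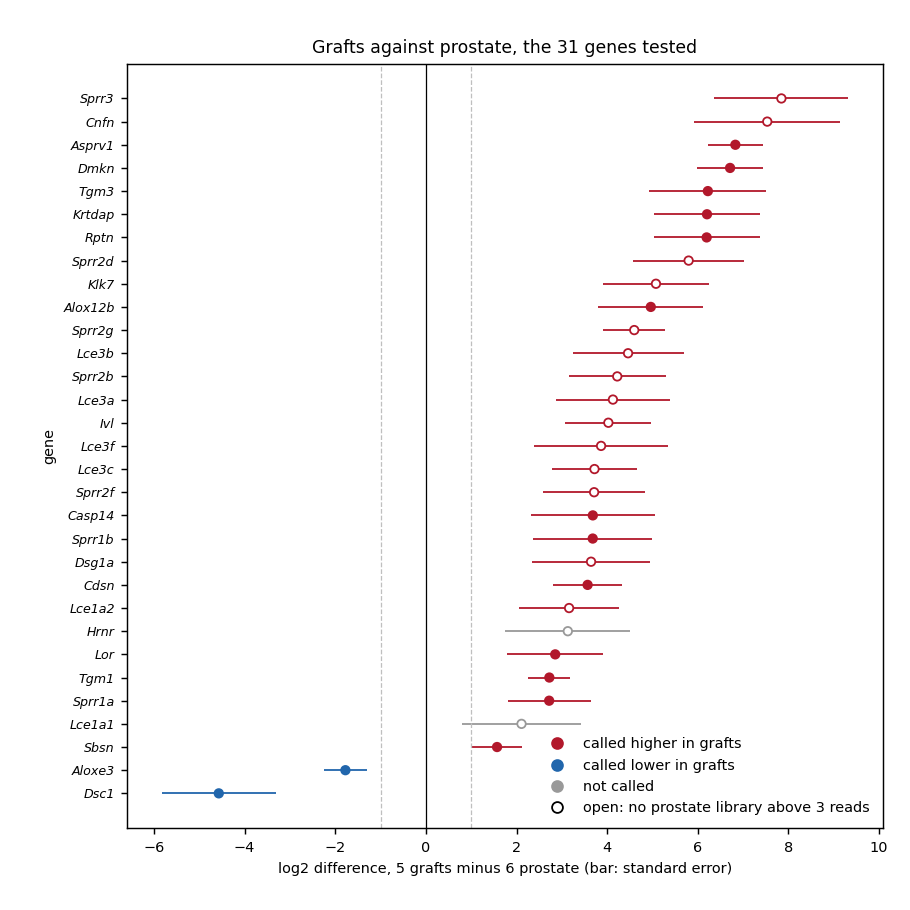
Points are the log2 differences of 5 grafts from 6 prostate libraries for the 31 genes tested, with standard errors as bars, red for called higher, blue for called lower and grey for not called. Open points mark the 16 genes with no prostate library above 3 reads, for which the fitted value is no bound. Sprr3 is at 7.84 and Dsc1 at -4.57.

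Of the 27 genes called higher, 17 kept the call when each graft and each prostate library was left out in turn. These include Sprr3, Cnfn, Asprv1, Dmkn, Tgm1, Tgm3, Krtdap, Rptn, Sprr2d and Cdsn. Lce3c and Sprr2g kept it in the fits in which they passed the filter, and Sprr1a, Sprr1b, Lor, Sbsn, Casp14, Lce3f, Lce1a2 and Dsg1a lost it in some fits. The number called higher was 17 of 27 tested without FS002, 18 of 26 without FS003, 20 of 31 without FS005, 24 of 32 without FS007 and 28 of 31 without FS008. Of all genes, 3392 of 16218, 3400 of 16177, 3347 of 16198, 4094 of 16329 and 4151 of 16358 were called higher in the same fits.

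FS008 was the lowest graft for 35 of the 46 genes detected in a graft, and the highest for none of them. FS003 was highest for 26, FS002 for 12, FS007 for 6 and FS005 for 2. The 7 genes detected in FS008 were Asprv1, Tgm1, Dmkn, Sbsn, Sprr1a, Cdsn and Aloxe3. The summed log2 level of 3 basal markers was 8.10 in FS008 and 12.2 to 14.2 in the other 4 grafts. In FS008 Krt5 was at 5.13, Krt14 at 5.73 and Trp63 at 7.54, with Trp63 at 9.34 to 10.45 in the other 4. The kidney markers summed to 17.2 in FS008 and to 10.2 to 17.3 in the others. The sum of 3 markers of non-cornifying stratified epithelium (Krt4, Krt13, Krt6a) was 10.8 in FS008 and 12.6 to 15.5 in the others. Krt6a made up most of that sum in FS008, where Krt13 was far lower than in the other 4 grafts, as given below. Of the markers of cornifying epidermis, Krt1 was at 11.60, 10.39, 7.94, 5.53 and 3.63 and Krt10 at 12.33, 10.91, 9.72, 6.31 and 6.22 in FS002, FS003, FS005, FS007 and FS008, with prostate at 3.96 to 5.27 and at 6.09 to 6.49. Krt2 was not detected, nor was any of 4 hair keratin genes, the highest of which reached 3.38. The part of these cell types in the levels of the envelope genes was not tested.

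Against MEFs, 25 of the 33 members tested were called higher in the grafts, where 29.9% of all 16121 genes tested were, and 1, Sprr2k, was called lower, where 12% were. Many of these members, such as Alox12b, Cnfn, Rptn and Tgm3, had no MEF library above 3 reads. They passed the filter only through their graft values, so this count supports nothing by itself. Asprv1 had a fitted log2 difference of 9.91 (standard error 0.81, adjusted p=1.85e-06), Dmkn of 9.76 (standard error 0.89, adjusted p=4.23e-06) and Tgm1 of 7.42 (standard error 0.48, adjusted p=3.53e-07). No MEF library exceeded 3 reads for Dmkn, so its fitted value is no bound. For Asprv1 only 1 MEF library exceeded 3 reads, and for Tgm1 3 did, so the size of these differences also rests on values near 0 reads. Sprr2k fell by 2.41 (standard error 0.59, adjusted p=0.00413). Every graft lay above every MEF library in 9 of the 33, against 28.4% of all genes tested. With no filter on low values, 32 of all 53 were called higher and 1 lower, against 24.3% and 8.71% of all genes. Without FS015 to FS018, the libraries with prostate transcripts, 8 of 40 members tested were called higher and 1 lower, when 3132 of all 16434 genes were called higher. With the mean of each close pair as 1 sample, 15 of 37 were called higher and 1 lower, when 4124 of 16332 genes were called higher. Quantile normalization moved the median of all genes from 0.26 to -0.20 and gave 13 members higher and 2 lower.

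Between prostate and MEFs only 8 members passed the filter. Higher in prostate were Dsc1 (log2 difference 8.09, standard error 0.47, adjusted p=4.05e-09), Tgm1 (4.70, standard error 0.41, adjusted p=2.15e-07), Sprr1a (4.13, standard error 0.68, adjusted p=7.97e-05) and Aloxe3 (3.997, standard error 0.40, adjusted p=6.7e-07). Lower in prostate were Sprr2k, by 5.52 on the log2 scale (difference -5.52, standard error 0.49, adjusted p=2.23e-07), and Cdsn, by 4.09 (difference -4.09, standard error 0.90, adjusted p=0.000963). Over all 14560 genes tested, 27.8% were called higher and 20.5% lower in prostate. Every prostate library lay above every MEF library in 4 of the 8 members and below in 1, against 37.4% and 29.3% of all genes tested. Native prostate thus held Sprr1a, Tgm1, Sbsn, Aloxe3 and Dsc1 in all 6 libraries and no Lce3 gene in any.

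The iEpt only grafts, in the second table, were unlike each other. FS023 held 28 of the 53 genes and FS022 held 11, and FS023 was above FS022 for 42 of the 46 genes detected in an iEpt+NAF graft. The share of all genes detected was 67.8% in FS023 and 64.9% in FS022. Sprr3 was at 9.83 in FS023 and at -1.14 in FS022, Tgm3 at 8.30 and -3.14, Cnfn at 8.42 and -0.56, Lor at 8.74 and 3.79, and Lce3a at 6.36 and -1.78. FS022 held Sprr1a at 8.26, Dmkn at 8.18, Tgm1 at 7.68, Sbsn at 6.92 and Cdsn at 5.36. Only 1 gene, Ivl, was detected in FS022 and not in FS023, at 4.81 against 3.42. Of the 27 genes called higher in iEpt+NAF grafts than in prostate, 24 were detected in FS023 and 11 in FS022. FS022 has fewer reads than FS023, with 3 reads at 3.12 and 2.70. Because the table and the kind of graft cannot be told apart, iEpt only and iEpt+NAF grafts were not compared by a test.

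In mm9, 37 of the 52 genes with a match in GENCODE M1 lie on chromosome 3 between 91884197 and 93203364, a stretch of 1.319 Mb with 56 protein-coding genes that forms part of the epidermal differentiation complex. Lor opens this stretch (chr3:91884197-91887064, minus strand, 2 exons) and Rptn closes it (chr3:93197621-93203364, plus strand, 3 exons). Sprr1a lies at chr3:92287877-92289816 and Sprr3 at chr3:92260697-92261539, both on the minus strand. Of the 37, 17 were tested against prostate, 15 were called higher and none lower. Of the 15 genes elsewhere, 14 were tested, 12 were called higher and 2 lower. Over all genes tested, 23% were called higher and 10.3% lower. Many members passed the filter only through their graft values, so these counts support nothing by themselves. In FS002 and FS003 26 members in this stretch were detected in each, in FS005 11, in FS007 10 and in FS008 only 1, Sprr1a, while 6 of the 15 genes elsewhere were detected in FS008. Levels within the stretch were uneven in every graft: in FS007 Sprr1a stood at 10.41 and Lor at 5.37, and all 13 Lce1 genes were at 1.61 or less.

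**Figure D5:**
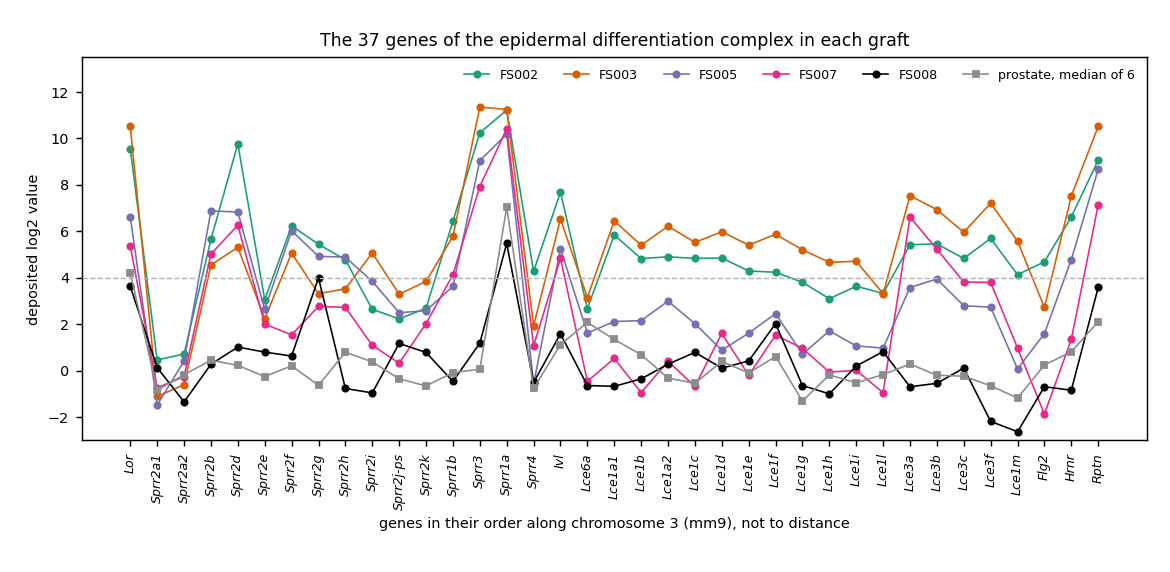
The x axis lists the 37 members in this stretch of the complex in their order on chromosome 3, and the y axis gives the deposited log2 value in each iEpt+NAF graft and the median of 6 prostate libraries, with a dashed line at 4. Sprr1a is the highest member there in prostate and in every graft but FS003, where Sprr3 is, FS002 and FS003 alone stay above the dashed line over most Lce1 genes, and FS007 rises again at Lce3a, to 6.62.

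The members were looked up in the RefSeq promoters of GRCm38.p6, from 250 bases before to 50 bases after the start, where 47 of the 53 genes had an entry. The AP-1 site TGANTCA, searched on both strands, was present in 18 of 51 member promoters (35.3%) and in 7.81% of all 32851 promoters. TATAAA, also on both strands, was present in 37.3% and 13.6%, and AACCNGTT, a site known for Grainyhead-like factors, in 1.96% and 2.09%. By family, 9 of 13 Sprr genes held the AP-1 site, 7 of the 9 Sprr2 genes among them, while none of 17 Lce genes did. Tandem copies share ancestry, so these are not independent promoters. The 250 bases before the start of the Sprr gene and of the Lce gene with the highest graft level follow, on the minus strand, 5′ to 3′, with capitals at TGANTCA and TATAAA.
Sprr1a (chr3:92485882-92486131): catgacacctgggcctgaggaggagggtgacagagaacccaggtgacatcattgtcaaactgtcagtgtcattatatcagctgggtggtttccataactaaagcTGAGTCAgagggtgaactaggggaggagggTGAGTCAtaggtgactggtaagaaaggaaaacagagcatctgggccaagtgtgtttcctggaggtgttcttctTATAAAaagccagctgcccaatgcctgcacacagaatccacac
Lce3a (chr3:92926231-92926480): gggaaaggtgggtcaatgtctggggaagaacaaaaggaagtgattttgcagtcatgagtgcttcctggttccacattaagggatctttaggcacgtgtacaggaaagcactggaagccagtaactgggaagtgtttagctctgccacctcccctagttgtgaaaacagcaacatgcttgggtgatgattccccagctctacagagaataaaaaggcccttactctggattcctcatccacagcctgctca
Sprr1a has 2 AP-1 sites, 146 and 116 bases before its start, and Lce3a has none in this window.

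The Sprr2 sites recur at nearly the same distance, as 30-base windows from the plus strand of chromosome 3 show, with the AP-1 site in capitals. These windows were chosen after the values were seen.
Sprr2b: aaaaggactctTGAGTCAcaagactcaacc
Sprr2d: tgagtgctcacTGAGTCAcaggtctcaacg
Sprr2f: aaactgaatatTGAGTCAcagtgctcaaca
Sprr2k: ggaatgtcctcTGAGTCActgtacttgact
The capitals start 195, 193, 197 and 196 bases before the gene start in Sprr2b, Sprr2d, Sprr2f and Sprr2k. Sprr2k has a second AP-1 site, TGACTCA, that starts 182 bases before its start, runs past the end of the window and is not marked there. Sprr2d and Sprr2k differed in where they were found. Sprr2d was detected in 4 iEpt+NAF grafts, in FS023 (5.04) and in no MEF library. Sprr2k was detected in 5 MEF libraries and no graft. A match of letters is a description and says nothing of whether the site was used.

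Other genes of the pathway were read from lists chosen with results of these data known. Among 24 other genes of the epidermal differentiation complex, 19 were tested against prostate, with 15 higher and 1 lower, beside 23% higher and 10.3% lower of all genes tested. Crct1, a cysteine-rich gene of the complex, was at 8.67, 8.96, 6.55, 7.86 and 2.12, S100a9, a calcium-binding gene also of neutrophils, at 8.21, 9.58, 5.94, 8.35 and 3.96, and Crnn (cornulin) at 6.67, 6.18, 6.73, 4.21 and -1.72. Prostate values did not exceed 1.02, 2.25 and 0.07 for them. The 1 lower gene was Prr9, at 0.09 to 3.59 in the grafts and at 5.38 to 7.08 in prostate (log2 difference -4.78, standard error 0.71, adjusted p=0.000201).

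Of 23 desmosomal and scaffold genes 10 of 22 tested were higher and none lower, beside 23% and 10.3% of all genes. Dsg3, the desmoglein of basal stratified cells, was at 9.88, 9.15, 7.81, 11.98 and 9.51 against at most 2.29 in prostate (log2 difference 8.79, standard error 0.74, adjusted p=3.7e-06), and so was as high in FS008 as in FS003. Scel (sciellin) was at 6.40 in FS008 and 8.003 to 10.31 in the other grafts, against 4.33 to 5.19. Of 25 barrier lipid genes 10 of 22 tested were also higher and none lower, beside the same shares of all genes, with Alox12e at 7.89 to 9.54 against at most 3.12, and Abca12, the lipid carrier of lamellar granules, at 0.71 in FS008 and 5.22 to 6.87 in the others. The median log2 difference was 0.73 over the scaffold genes tested and 0.96 over the lipid genes, beside 0.11 over all genes.

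Of 23 genes of desquamation proteases and their inhibitors 12 of 20 tested were higher and 1 lower, beside 23% and 10.3% of all genes, with a median of 3.26. Klk11 was at 7.68, 7.62, 6.69, 8.59 and 2.56, and Klk10 at 9.20, 9.29, 7.05, 10.29 and 2.30, while prostate reached 1.78 and 3.14. Slpi, a secreted protease inhibitor, was at 8.62 to 10.90 in the grafts and at -1.70 to 6.24 in prostate. The 1 lower gene was Spink5, the inhibitor of epidermal kallikreins, at 10.64, 11.09, 9.15, 10.70 and 4.08 against 12.90 to 14.23 in prostate (log2 difference -4.61, standard error 1.07, adjusted p=0.00348).

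Of 31 regulators of epidermal differentiation 30 were tested, and 7 were higher and 4 lower in the grafts than in prostate, shares near the 23% and 10.3% of all genes. Their median difference was 0.50. Grhl3, a Grainyhead-like factor of barrier formation, was at 8.59, 8.10, 7.47, 8.29 and 6.22 with all prostate libraries at 2.92 or less (log2 difference 6.04, standard error 0.62, adjusted p=1.43e-05). Vdr rose by 2.72 (standard error 0.34, adjusted p=5.48e-05). Gata3 fell by 4.30 (standard error 0.80, adjusted p=0.000901), from 11.40 to 12.48 in prostate to 4.74 to 9.63 in the grafts. Trp63, the p53 relative of stratified epithelia, did not pass (log2 difference -0.25, standard error 0.42, adjusted p=0.63).

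Of 14 keratins of stratified epithelia 12 were tested, and 9 were higher and none lower, beside 23% and 10.3% of all genes, with a median of 3.48. Krt6a was at 12.41, 11.32, 10.55, 13.96 and 10.64 (log2 difference 9.08, standard error 1.44, adjusted p=0.000303), and Krt13, a keratin of non-cornifying mucosa, at 13.53, 13.46, 10.60, 14.18 and 4.02 (log2 difference 7.64, standard error 1.55, adjusted p=0.00156). Krt6a and Krt16 were thus highest in FS007, as were Tgm1, Tgm3, Asprv1, Alox12b and Cdsn, whereas Krt1 and Krt10 were highest in FS002.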

How the data were processed

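The authors deposited 2 tables of DESeq-normalized values on a log2 scale, with 17 and 2 libraries and 23284 genes each. The submitters' processing notes name bcl2fastq 1.8.4, TopHat, Cufflinks, DESeq and mm9. The transformation to the log2 scale, strand use and the counting of shared reads are not given in the sources used here, and rat reads could align to mouse genes. At high values, removing a linear offset of 1.61 left whole multiples of 1 read in each library, while low values carried added scatter. The 2 tables were normalized separately, and tests used the first only.

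Tests between groups used the deposited log2 values and limma (3.58.1, under R 4.3.3), namely lmFit followed by eBayes with a variance trend. A gene entered a test if its linear mean over the libraries compared reached 10, and p-values were adjusted by Benjamini-Hochberg over every gene that entered. Standard errors are the moderated ones of limma. The fit was tested on simulated data. Fold changes on this scale understate those of low genes. For genes with no prostate library above 3 reads, a lower bound was taken for the graft mean. It was set against the mean 3-read value of the prostate libraries and covers counting error only. Levels per kb used exon lengths of GENCODE M1. Alternatives changed the filter (none, or a linear mean of 50), the scaling, a pseudocount of 8, the libraries in the fit, the minimum difference and the variance trend. Members with a linear mean of at least 100 in a group, or called between grafts and prostate, are given graft by graft, and up to 4 genes of each list. Some items under that rule are not reported here. Members and lists were chosen with earlier results of these data known. Python 3.11.15, numpy 2.4.6, pandas 2.3.3 and matplotlib 3.10.9 were used.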

Additional observations from a re-analysis of the deposited data

Results flagged for a closer look

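Among 43 sets of values, each 1 named gene in the 5 iEpt+NAF grafts, the 6 prostate or the 6 MEF libraries with at least 1 value of 4 or more, 3 had a lowest or highest library far from the rest, where chance gives about 2.1. All 3 were graft FS008 at the low end. Cnfn was at -0.041 in FS008 and at 8.08 to 9.70 in the other 4 grafts. Krtdap was at 3.21 against 8.65 to 10.55. Sprr1a was at 5.48 against 10.19 to 11.25.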

How the results depend on the processing

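Members called higher in grafts than in prostate numbered 27, and 14 of 16 tested with a filter at a linear mean of 50 (the other 2 were lower), 15 of 20 after quantile normalization and 17 to 28 with 1 library left out. The 25 higher than in MEFs became 12 of 14, 13 of 23 and 17 to 30 in the same order, 8 of 40 without FS015 to FS018, and 15 of 37 with means of the 3 close pairs, an alternative chosen after seeing the data. The 1 lower than in MEFs became 0 with the filter at 50, 2 after quantile normalization, 2 with all 17 samples in the fit and 1 to 2 with 1 library left out. Between prostate and MEFs, 10 were higher and 6 lower with no filter (4 and 2 with it), 1 was lower with the filter at 50 and 5 after quantile normalization. Of all genes, 22% were higher and 14.6% lower in prostate than in MEFs with no filter. With the filter at 50, 2668 of 13732 genes were higher in grafts than in prostate and 3386 of 13612 higher than in MEFs. At that filter 2586 of 12451 genes were lower in prostate than in MEFs. The higher filters tested fewer genes, and the other causes were not tested. Quantile normalization also turned all-gene splits between grafts and MEFs from 4815 higher and 1942 lower to 2828 and 3830, and between prostate and MEFs from 4044 and 2982 to 3313 and 3570.

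Differences of grafts from MEFs that changed sign were Aloxe3 (-0.26), Casp14 (-2.30) and Ivl (-0.57) after quantile normalization, Casp14 without FS002, FS003, FS005, FS015 or FS020 (-0.72 to 1.27 over all fits with 1 library left out), and Cdsn without FS008 (-1.05 to 0.15 over all such fits) or without FS015 to FS018 (0.73). Between prostate and MEFs, Lor turned to -0.037 after quantile normalization and Sbsn to 0.19 without FS015 to FS018. Of 489 values of 29 named members between grafts and prostate, 435 kept direction and call, 54 lost the call and none reversed. No paired analysis was possible because the labels give no replicate number shared by groups.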
